A study of Saccharomyces cerevisiae with 4 samples.

Results

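The genes for the proteins of the large ribosomal subunit of Saccharomyces cerevisiae were followed in a wild-type strain and in a strain without TOR1. Members were taken by name: every counted feature whose standard gene name is RPL followed by a number, with or without the letter A or B, and the 5 genes of the P-stalk (RPP0, RPP1A, RPP1B, RPP2A and RPP2B). This gave 81 of the 7127 counted features, made up of 35 A copies, 35 B copies and 11 genes present in a single copy, and they encode 46 different proteins. The wild type was the MATa laboratory strain BY4741, which derives from S288C and carries the alleles his3-1, leu2-0, met15-0 and ura3-0. The deletion strain has the same background and alleles, with TOR1 (YJR066W) replaced by the kanMX4 cassette. Both were grown at 30°C in minimal dextrose medium with ammonium sulfate, histidine, leucine, methionine and uracil and were harvested in logarithmic growth, and the titles give a time of 4 h. Poly(A) RNA was sequenced on an Ion Torrent platform in 2 libraries per strain. No label says that the libraries came from separate cultures, and the p-values therefore reflect only their spread, part of which may be technical.

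The large subunit of the ribosome holds the peptidyl transferase centre, which joins amino acids, and the tunnel through which the new chain leaves. In budding yeast most of its proteins are encoded by a pair of paralogs, called A and B, that arose in an ancient genome duplication and often encode identical or nearly identical proteins. Transcription of these genes is tied to growth: Rap1 binds most of their promoters and recruits Fhl1 and Ifh1, and TOR complex 1, of which Tor1 is one of the alternative kinase subunits, acts on this transcription through Sfp1, Sch9 and other regulators.

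RPL41 is shown because its ratio of copies changed most and its copies are nearly identical. The coding sequences of RPL41A (chrIV:130407-130484, minus strand) and RPL41B (chrIV:221724-221801, minus strand), in the R64 assembly of RefSeq, are 78 bases long and differ by the single substitution C9T, counted from the first base of the start codon in RPL41A. That base is in capitals in both, written 5′ to 3′.
RPL41A: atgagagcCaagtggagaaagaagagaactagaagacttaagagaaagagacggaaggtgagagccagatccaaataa
RPL41B: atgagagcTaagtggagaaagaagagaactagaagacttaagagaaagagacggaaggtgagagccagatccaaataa
The encoded proteins are identical, so reads of the coding sequence can be assigned to a copy only where they cover that base or reach beyond it.

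Upstream windows of 4 members with a motif of Rap1 (CACCC, any 2 bases, then ACA) on either strand are shown next as examples of the letters that stand before some members, each on the strand of its gene, with the matching letters in capitals. The window of RPL13B (chrXIII:551508-551647, minus strand) holds 2 matches, which start 422 and 332 bases before the start codon. Those of RPL41B (chrIV:222112-222171, minus strand), RPL22B (chrVI:65144-65203, minus strand) and RPL25 (chrXV:79925-79984, plus strand) hold 1 each, at 345, 246 and 398 bases.
RPL13B: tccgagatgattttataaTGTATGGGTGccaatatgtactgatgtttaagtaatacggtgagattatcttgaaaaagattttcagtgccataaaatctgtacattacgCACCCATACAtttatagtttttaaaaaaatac
RPL41B: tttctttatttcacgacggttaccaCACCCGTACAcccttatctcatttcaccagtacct
RPL22B: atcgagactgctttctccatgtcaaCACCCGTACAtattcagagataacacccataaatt
RPL25: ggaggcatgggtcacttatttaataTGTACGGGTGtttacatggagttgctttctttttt

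Total counts ranged from 8060480 to 14446057 per library, and a floor of 3 counts, the upper limit for a feature without any count, equals 0.208 to 0.372 CPM (counts scaled to library size) before TMM scaling. Wild-type libraries 1 and 2 held 635 and 357 counts of TOR1, and deletion libraries 1 and 2 held 0 and 1. On the TMM scale used for all CPM values, markers of MATa cells summed to 6080 and 5498 CPM in the wild type against 6008 and 5301 in the deletion, so the strains overlapped, and 0 of the 5 were called. Markers of MATalpha cells summed to 45.9 and 45.9 against 34.3 and 35.5 CPM, with 2 of 4 called lower, and those of meiosis to 149 and 143 against 112 and 104 CPM, with 1 of 5 called lower. The part of these marker changes in the results was not tested.

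Messenger RNA for nearly all large-subunit proteins was less abundant in the tor1 deletion. The members took 9.77% and 10.4% of all counts in wild-type libraries 1 and 2 and 2.87% and 2.29% in deletion libraries 1 and 2. The groups did not overlap, although 2 libraries against 2 cannot give a two-sided exact permutation p below 0.333. Fewer transcripts per cell and a changed amount of other RNA cannot be told apart in such shares, nor can fewer cells of one kind and less RNA per cell. In the fit over all 6197 features that passed the filter on low counts, which all 81 members did, 79 members were lower in the deletion at an edgeR quasi-likelihood adjusted p below 0.05, against 24.9% of all features. None was higher, against 26.9%, with all 81 fold changes below 0 on the log2 scale, and 2 did not pass. The median log2 fold change of the members was -1.77, a 3.41-fold lower level, with quartiles of -2.03 and -1.57, while that of all features tested was -0.02. The fall was at least 2-fold in 77 members, against 16.1% of all features, and at least 4-fold in 22, against 3.18%. Every wild-type library was on one side of every deletion library for 79 members, as it was for 78.9% of all features.

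Divided by copy, part of the subunit or presence of an intron, the genes had medians between -1.86 and -1.48. The median log2 fold change was -1.82 in the A copies, of which 34 of 35 fell, and -1.69 in the B copies, of which 34 of 35 fell. It was -1.82 in the 11 single-copy genes and -1.48 in the 5 P-stalk genes, all of which fell. Introns are common in yeast ribosomal protein genes and rare elsewhere in this genome. The 53 members with an intron had a median of -1.86 and all fell, and the 28 without one had a median of -1.60, with 26 that fell. In 34 members under 90% of the 50-base stretches of coding sequence occur once in the genome, and these had a median of -1.62, with 32 that fell. The 31 members in which all such stretches are unique had a median of -1.92, and all fell. These differences between subgroups were not tested.

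**Figure D1:**
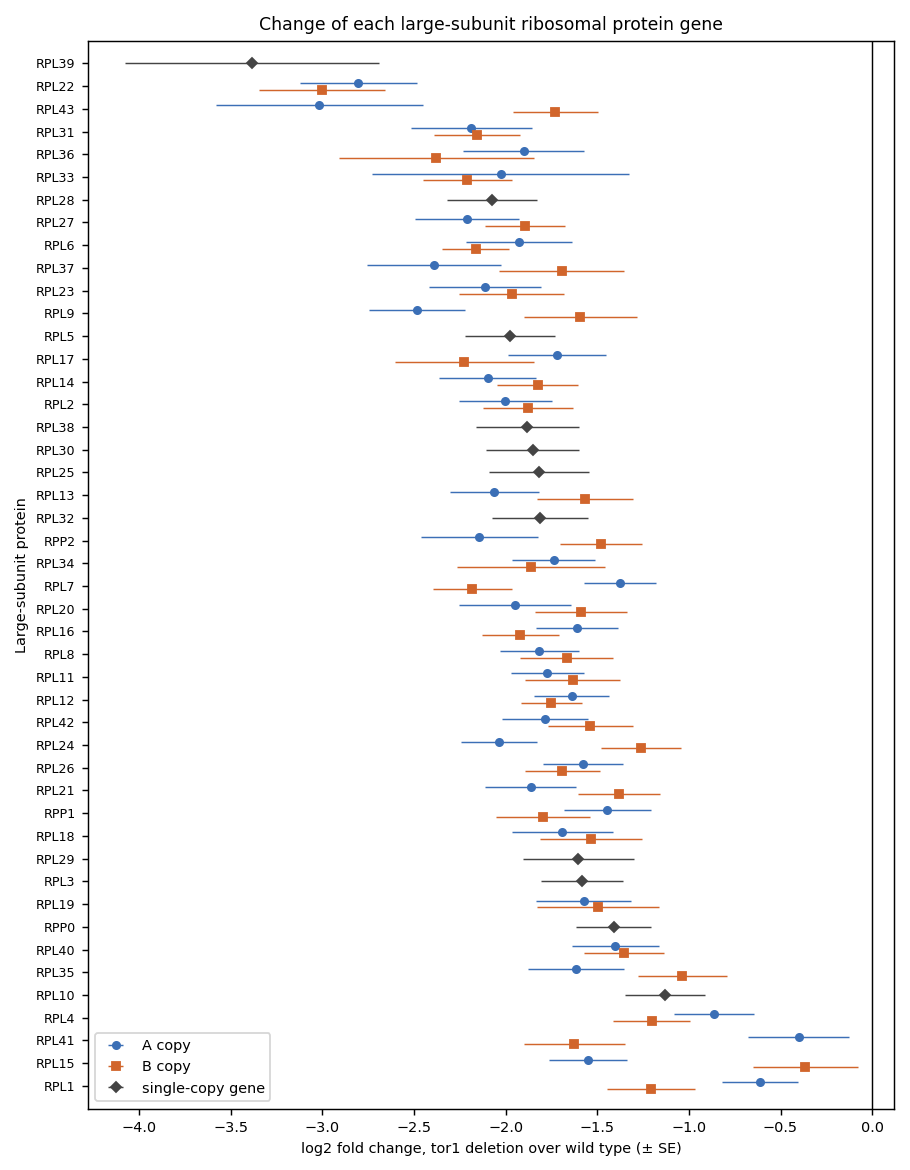
Log2 fold change of each of the 81 genes in the tor1 deletion over wild type, with bars of 1 SE and 2 libraries per strain, ordered by protein and marked as A copy, B copy or single-copy gene. All points lie below 0, from RPL39 at -3.38 to RPL15B at -0.36.

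The libraries of a strain did not measure the members alike. Of the 81 members, 76 (93.8%) were lower in deletion library 2 than in deletion library 1, against 51.2% of all features, whereas 17 (21.0%) were lower in wild-type library 2 than in wild-type library 1, against 50.2%. The size of the fall therefore depended on the deletion library: the median was -2.03 without deletion library 1 and -1.55 without deletion library 2.

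Some members were counted at levels far below the rest, and those with the lowest levels lay mostly where another reading frame overlaps the gene. In 12 members at least 50% of the coding bases lay under another reading frame of at least 100 codons that the annotation does not list, in each case on the opposite strand. The share was 99.3% in RPL43A, 96.7% in RPL22A, 96.2% in RPL39, 89.1% in RPL28 and 88.0% in RPL33A. In the wild type these 5 genes were at 14.8, 70.2, 12.6, 120 and 9.30 CPM per kilobase of coding sequence. They made up 5 of the 7 members below 150 CPM per kilobase, and the others were RPL36B at 28.2, with no such frame, and RPL7B at 107.5, with 49.0% of its bases under one. The median level of the 12 members was 556 CPM per kilobase, against 2594 in the other 69. RPL3 and RPL10 were not low in spite of shares of 74.2% and 61.3%. The count files list features without an entry in the annotation, whose positions are not known here, and whether counting used strand or dropped reads shared by features is not stated. The part of such overlaps in the low levels was not tested. Without the 12 members, a comparison chosen after the counts had been seen, 68 of 69 members were lower.

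**Figure D2:**
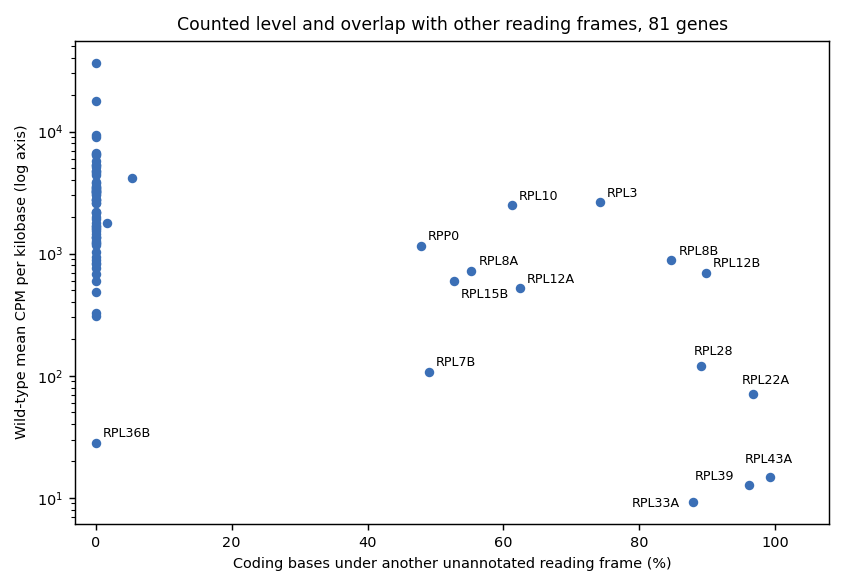
Wild-type mean CPM per kilobase of coding sequence (log axis, 2 libraries) against the percentage of coding bases under another unannotated reading frame of at least 100 codons, for 81 genes. Genes without overlap spread from RPL36B at 28.2 to 36712 CPM per kilobase, and the lowest 3 points, RPL33A, RPL39 and RPL43A, all lie above 80% overlap.

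The 6 members with the steepest falls were RPL39, RPL43A, RPL22B, RPL22A, RPL9A and RPL37A. In RPL39, RPL43A and RPL22A, 96.2%, 99.3% and 96.7% of the coding bases lay under another reading frame. The share was 0% in RPL22B, RPL9A and RPL37A. The part of such overlaps in the size of the falls was not tested. RPL22B (YFL034C-A), which encodes a protein of the subunit surface that yeast can grow without, was at 646 and 360 CPM in the wild type against 75.4 and 50.4 in the deletion. Its log2 fold change was -3.004 ± 0.34 (SE, edgeR adjusted p = 0.000696). RPL22A was at 27.6 and 23.8 CPM against 4.74 and 2.75, a change of -2.80 ± 0.32. RPL22B was thus 8.02-fold and RPL22A 6.98-fold lower, and no wild-type library overlapped a deletion library, as in 78.9% of all features. RPL39, whose short protein lines the exit tunnel, had only 40 and 16 wild-type counts against 1 and 2 in the deletion. Pooled and scaled to library size, the wild type exceeded the deletion 11.3 times for RPL39, with exact 95% bounds of 3.69 and 56.6 for counting error alone. RPL43A had 52 and 54 counts against 5 and 3, a ratio of 8.05 with bounds of 3.94 and 19.1. RPL9A, a copy of the gene for a protein near the base of the stalk, was at 418 and 549 CPM against 104 and 69.5, a change of -2.48 ± 0.26. RPL37A was at 684 and 714 CPM against 184 and 83.1, a change of -2.39 ± 0.36.

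The 6 members with the shallowest changes were RPL15B, RPL41A, RPL1A, RPL4A, RPL35B and RPL10. RPL15B was at 352 and 376 CPM in the wild type against 366 and 200 in the deletion, and its change of -0.36 ± 0.29 did not pass (edgeR adjusted p = 0.313). RPL41A was at 1197 and 1607 CPM against 1274 and 852, and its change of -0.40 ± 0.28 did not pass (edgeR adjusted p = 0.255). In both genes deletion library 1 lay within the range of the wild type and deletion library 2 lay below it. Without deletion library 1, RPL15B was at -0.85 and RPL41A at -0.71, while RPL15B was at 0.01 without deletion library 2. A fit with 1 deletion library holds no spread of that strain, so it cannot decide whether these genes fell. With all libraries, RPL41A passed with library totals, at -0.73, and with upper quartile factors, at -0.79. RPL1A, which encodes the mobile stalk beside the exit site for tRNA, was at 434 and 572 CPM against 344 and 314, a fall of 0.61 on the log2 scale. RPL4A, which encodes a protein with a long extension into the tunnel wall, was at 440 and 619 CPM against 286 and 297. RPL35B, whose protein lies near the tunnel exit, was at 305 and 441 CPM against 206 and 157. The groups did not overlap in RPL1A, RPL4A or RPL35B, but these calls did not hold in every fit with a wild-type library left out. Without wild-type library 2, RPL4A, RPL35B and RPL1B no longer passed in edgeR. RPL1A passed neither without wild-type library 1 nor without wild-type library 2. A fit with 1 wild-type library holds no spread of that strain, and fewer of all features passed in these fits too.

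Among the single-copy genes, which have no paralogous copy to share reads with, all 11 fell. RPL3, whose protein reaches the peptidyl transferase centre, was at 2877 and 3256 CPM in the wild type against 1069 and 976 in the deletion, a change of -1.58 ± 0.22 (edgeR adjusted p = 0.00152). RPL10, whose protein is among the last to be added, in the cytoplasm, was at 1826 and 1491 CPM against 727 and 788, the shallowest change of the group at -1.13 ± 0.22. RPL10 did not pass without wild-type library 1, a fit in which fewer of all features passed too. RPL5, whose protein carries the 5S ribosomal RNA into the subunit together with Rpl11, was at 944 and 1235 CPM against 317 and 237, a change of -1.98 ± 0.25. In these genes of the subunit core every wild-type library was above every deletion library, while 78.9% of all features had no overlap in either direction.

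RPL25, whose protein sits at the tunnel exit, was at 2502 and 3083 CPM against 936 and 647, a change of -1.82 ± 0.27. RPL30, whose protein also binds its own transcript and blocks its splicing, was at 2407 and 1816 CPM against 653 and 516, a change of -1.85 ± 0.25. RPL32 was at 2031 and 2185 CPM against 718 and 483, a change of -1.81 ± 0.26. These 3 genes fell by nearly the same amount, close to the median of all members. RPL38 was at 793 and 798 CPM against 273 and 158, a change of -1.88 ± 0.28. RPL29, which yeast can grow without, was at 651 and 507 CPM against 245 and 137, a change of -1.60 ± 0.30. RPL28, the single-copy gene for a protein of the subunit core, was counted at only 56.98 and 51.2 CPM against 15.4 and 10.5, a change of -2.07 ± 0.24.

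The P-stalk recruits and activates the translation factors that hydrolyse GTP. Its base is P0, encoded by RPP0, which binds pairs of the small acidic proteins encoded by the RPP1 and RPP2 genes. RPP0 was at 1116 and 1062 CPM in the wild type against 452 and 368 in the deletion, a change of -1.41 ± 0.21. RPP1A was at 2096 and 1997 CPM against 866 and 637, a change of -1.45 ± 0.24, and RPP1B at 1998 and 1437 against 551 and 439, a change of -1.79 ± 0.26. RPP2B was at 3161 and 2829 against 1149 and 1001, a change of -1.48 ± 0.23. RPP2A was at 1233 and 1733 CPM against 422 and 249, a change of -2.14 ± 0.32. All 5 genes fell with no overlap between strains, a lack of overlap found, in either direction, for 78.9% of all features. Per kilobase of coding sequence, the summed RPP1 level was 10.7 and 9.46 times that of RPP0 in the wild type and 9.17 and 8.56 times in the deletion, and the summed RPP2 level 11.3 and 12.3 times against 9.99 and 9.76 times. Both ratios were lower in each deletion library than in either wild-type library, and neither difference was tested. In RPP0 47.8% of the coding bases lay under another reading frame, against 0% in the RPP1 and RPP2 genes. RPP0 also has 939 coding bases, against 321 to 333 in those genes, and the levels divide all reads of a transcript by coding bases. The part of either in the size of the ratios was not tested.

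The copies of most pairs fell together. Both copies fell in 33 of the 35 pairs, while 24.9% of all single features fell. The share of all gene pairs in which both copies fell is not given here. The B copies took 53.3% and 52.9% of all counts on paired genes in the wild type against 53.0% and 53.5% in the deletion. Across the 35 pairs, Pearson's r between the log2 fold changes of the copies was 0.395, a description over pairs that share the same 4 libraries. The ratio of A to B within each library was tested with limma over 924 gene pairs of the genome, and 9 of the 35 pairs had a changed ratio at an adjusted p below 0.05, against 48.8% of all pairs tested. The median absolute difference between the copies was 0.32 on the log2 scale, against 0.79 over all pairs. Of the 924 pairs, 819 were classed as under 90% identical in nucleotides, against 7 of the 35, so these medians are of unlike sets. The median over the pairs named A and B alone is not given here. The A copy fell more than the B copy in 6 of the 9 and less in 3. Among the 61 pairs named A and B alone, which include the 35, 29.5% were called, and 9 of the 35, a share near that one. Of these 9, 8 were the same as before: RPL13 came in and RPL43 no longer passed. The count of 9 depended on single libraries, as did the share of all pairs called. It was 4 without wild-type library 1 (31.9% of all pairs), 2 without wild-type library 2 (33.0%), 17 without deletion library 1 (67.1%) and 11 without deletion library 2 (60.7%).

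**Figure D3:**
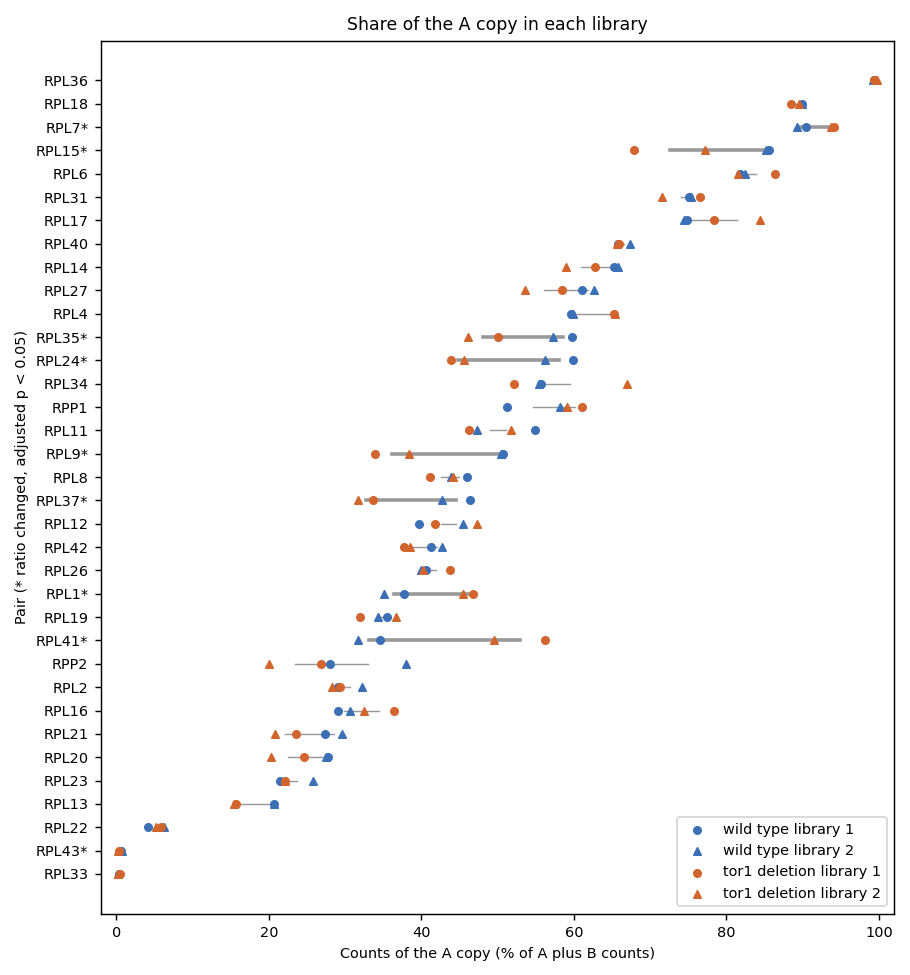
Counts of the A copy as a percentage of the counts of both copies, for 35 pairs in each of the 4 libraries (circles for library 1, triangles for library 2 of a strain), with a grey line between the strain means and an asterisk where the ratio changed. In RPL41 the share is 34.6% and 31.7% in the wild type against 56.3% and 49.6% in the deletion, while that of RPL40 stays between 65.7% and 67.3%.

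The largest shift was in RPL41, the pair whose coding sequences differ by a single base. The A copy took 34.6% and 31.7% of the pair's counts in the wild type against 56.3% and 49.6% in the deletion, and the A copy changed less than the B copy by 1.18 ± 0.22 on the log2 scale (limma adjusted p = 0.00863). RPL41B was at 2262 and 3465 CPM in the wild type against 990 and 867 in the deletion. Of the stretches of 50 bases in these genes, 31.0% occur once in the genome, so the division of reads between RPL41A and RPL41B is uncertain. The shares of the strains did not overlap in this pair. RPL15 shifted the other way: its A copy took 85.6% and 85.2% in the wild type against 67.9% and 77.2% in the deletion, a difference of -1.13 ± 0.27 (limma adjusted p = 0.0194). RPL15A itself was at 2089 and 2167 CPM against 774 and 679, and 88.2% of the 50-base stretches in the pair are unique. In RPL15B, however, 52.7% of the coding bases lay under another reading frame, against 0% in RPL15A. The part of this overlap in the ratio was not tested. The RPL41 and RPL15 ratios passed with each of the 4 libraries left out.

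In 5 further pairs the A copy fell more. RPL43A, with few counts, took 0.566% and 0.786% of its pair in the wild type against 0.336% and 0.213% in the deletion (difference -1.16 ± 0.29, limma adjusted p = 0.0222). This difference shrank to -0.25 with 5 counts added instead of 0.5, and it did not pass without wild-type library 2. The A copy of RPL9 took 50.7% and 50.5% against 33.9% and 38.4% (difference -0.86 ± 0.20, limma adjusted p = 0.0171). RPL9B was at 407 and 539 CPM against 202 and 112. In this pair the wild type used the copies almost evenly. RPL9B took the larger share in the deletion, although its own level was lower there. The A copy of RPL24, whose protein forms a bridge between the subunits, took 59.9% and 56.2% against 43.9% and 45.6% (difference -0.77 ± 0.19, limma adjusted p = 0.0199). The A copy of RPL37 took 46.3% and 42.7% against 33.7% and 31.7%, and that of RPL35 took 59.7% and 57.3% against 50.02% and 46.1%. In RPL35 the copies encode identical proteins and 18.6% of the 50-base stretches are unique.

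In RPL7 and RPL1 the A copy fell less. The A copy of RPL7 took 90.5% and 89.2% in the wild type against 94.1% and 93.7% in the deletion (difference 0.79 ± 0.19, limma adjusted p = 0.0194). RPL7A was at 646 and 747 CPM against 288 and 249, and RPL7B at 68.0 and 90.1 against 18.1 and 16.7. The A copy of RPL1 took 37.8% and 35.1% against 46.8% and 45.4% (difference 0.58 ± 0.18, limma adjusted p = 0.0451), with 19.0% of its 50-base stretches unique. The ratios of RPL9, RPL7, RPL24, RPL37, RPL35 and RPL1 all missed the threshold when either wild-type library was left out. Of the 9 pairs, 4 have coding sequences that are at least 95% identical, out of 11 such pairs, and 5 are less alike, out of 24.

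Of the 8 pairs with the largest differences, RPP2 did not pass. Its A copy took 28.1% and 38.0% in the wild type against 26.9% and 20.0% in the deletion, and the difference was -0.69 ± 0.31 (limma adjusted p = 0.118), which passed without wild-type library 1 or without deletion library 1. The smallest differences were those of RPL19 at -0.04 ± 0.20, RPL40 at -0.05 ± 0.17, RPL31 at -0.08 ± 0.21 and RPL26 at 0.10 ± 0.18. RPL40A and RPL40B, which encode a ubiquitin joined to the ribosomal protein, kept a share of 65.8% and 67.3% against 65.9% and 65.7% for the A copy. The more abundant copy turned from one to the other between the strain means in 5 pairs, RPL41, RPL9, RPL24, RPL35 and RPL11. The share of all gene pairs that turned is not given here. In RPL11, whose protein joins Rpl5 and the 5S ribosomal RNA, the A share was 54.9% and 47.3% in the wild type against 46.2% and 51.7% in the deletion, so the strains overlapped and the change in order lay within their spread.

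Once the counts of both copies were added, which does not depend on how reads were divided between them but cannot restore reads left uncounted, 46 of 46 proteins were lower in the deletion at an edgeR adjusted p below 0.05, against 24.5% of all rows tested. The median log2 fold change was -1.72. The steepest were RPL39 at -3.39, RPL22 at -2.998, RPL33 at -2.21 and RPL31 at -2.19. The shallowest were RPL1 at -0.97, RPL4 at -0.995, RPL41 at -1.11 and RPL10 at -1.13. Of the 50-base stretches, 19.0% are unique in RPL1, 27.3% in RPL4 and 31.0% in RPL41, against 100% in RPL10. The part of reads left uncounted in these shallow changes was not tested. RPL41 and RPL15, each with a copy that had not passed, were both lower as sums (edgeR adjusted p = 0.0164 and 0.00336).

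By level per kilobase of coding sequence, RPL41 led in the wild type at 54823 ± 14899 CPM per kilobase (SD, n = 2) and in the deletion at 25468 ± 4741, a value that divides all reads of the transcript by only 78 coding bases. It was followed by RPL40 at 14231 ± 141 against 5430 ± 778, RPP2 at 13718 ± 426 against 4304 ± 661 and RPP1 at 11743 ± 1402 against 3873 ± 719. These 4 headed the order in both strains. At the other end of the wild-type order were RPL4 at 815 ± 195 against 409 ± 12.8, RPL28 at 120 ± 8.61 against 28.6 ± 7.46 and RPL39 at 12.7 ± 4.19 against 1.14 ± 0.316. In RPL28 and RPL39, 89.1% and 96.2% of the coding bases lay under another reading frame, and 27.3% of the 50-base stretches are unique in RPL4. The part of reads left uncounted in these low levels was not tested. Of the 45 pairs of neighbours in the wild-type order, 40 differed by less than the sum of their SDs, so most of the order is not resolved. The order was largely kept, with a Spearman's rho of 0.948 across the 46 proteins. RPL28 and RPL39 were also last in the deletion, where RPL4 had rank 40. RPL22 moved from rank 39 to rank 44 and RPL1 from rank 36 to rank 24.

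**Figure D4:**
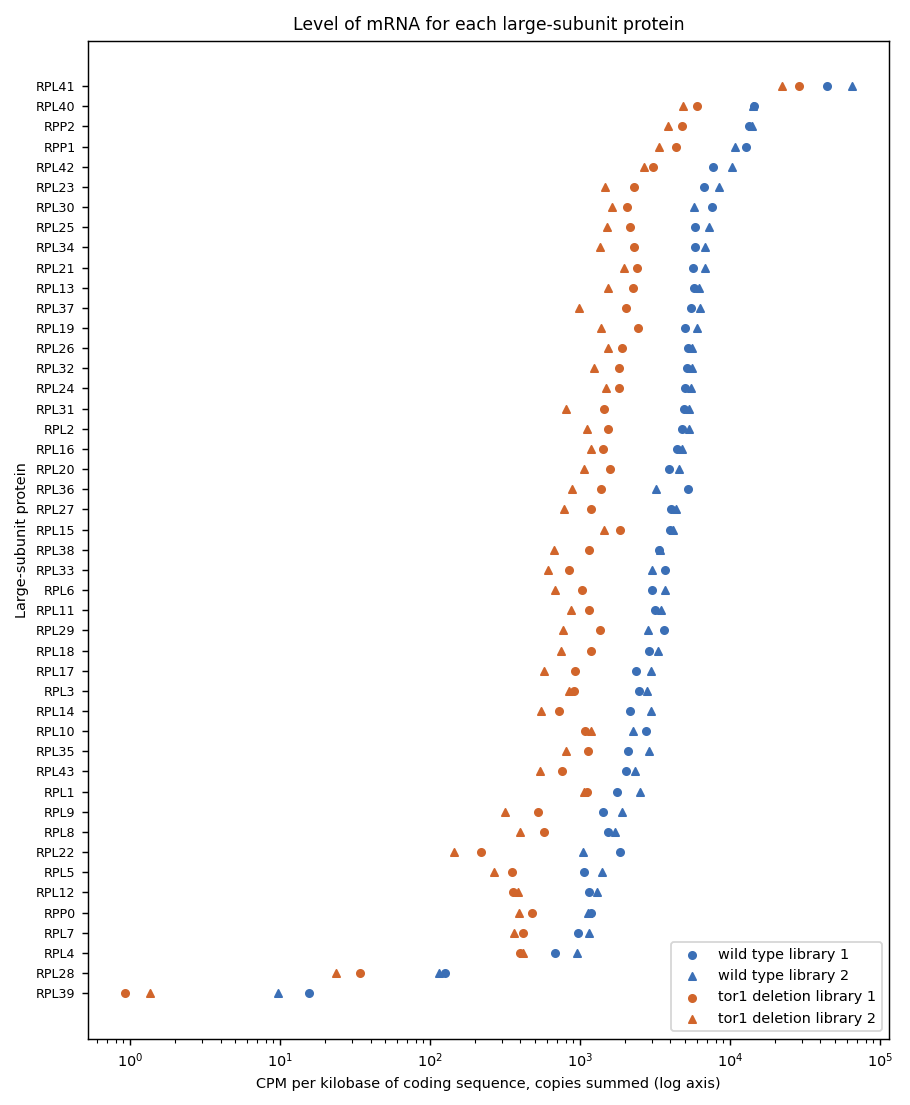
CPM per kilobase of coding sequence (log axis) for each of the 46 proteins with copies summed, in the 2 wild-type and the 2 deletion libraries, ordered by the wild-type mean. For every protein both deletion libraries lie below both wild-type libraries, and RPL28 and RPL39 stand below the rest in both strains. In these genes 89.1% and 96.2% of the coding bases lie under another reading frame.

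Most genes that work with the large-subunit proteins and passed the test fell. All 57 small-subunit protein genes fell, against 24.9% of all features, with a median log2 fold change of -1.66. Of the 5 dedicated chaperones, which hold single large-subunit proteins until they join the ribosome, 3 fell, against the same 24.9% of all features. SYO1, the chaperone of Rpl5 and Rpl11, was at 31.7 and 37.1 CPM in the wild type against 9.48 and 14.1 in the deletion, a change of -1.53 ± 0.26. RRB1, that of Rpl3, was at 93.7 and 94.5 CPM against 39.2 and 51.7, a change of -1.05 ± 0.19. ACL4, that of Rpl4, was at 84.2 and 88.2 CPM against 54.9 and 55.8, a change of -0.64 ± 0.16, which did not pass when either wild-type library was left out. In all 3 both deletion libraries lay below both wild-type libraries, while the strains did not overlap, in either direction, for 78.9% of all features. SQT1, the chaperone of Rpl10, at -0.54 ± 0.22 (edgeR adjusted p = 0.0809), and BCP1, that of Rpl23, at -0.34 ± 0.27 (edgeR adjusted p = 0.323), did not pass. SQT1 passed without deletion library 2 and BCP1 without deletion library 1.

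Placeholder proteins resemble a ribosomal protein and occupy its site during assembly. MRT4, which precedes P0, was at 135 and 157 CPM against 42.7 and 34.1, a change of -1.93 ± 0.20. RLP24, which precedes Rpl24, was at 91.3 and 102.1 CPM against 45.5 and 53.2, a change of -0.97 ± 0.18, and it did not pass without wild-type library 2. RLP7, a relative of RPL7, was at -0.44 ± 0.16 (edgeR adjusted p = 0.054) and passed when either deletion library was left out. Of 13 factors of late maturation and export of the subunit, 9 fell and none rose, with a median of -0.99, but BUD20 and TIF6 were called higher without deletion library 1 and BUD20 without deletion library 2. Over all features 24.9% fell and 26.9% rose. ARX1, an export factor, fell by 1.63, ALB1, its partner, by 1.55, and JJJ1 by 1.57. REI1, which releases Arx1, fell by 1.22, and LSG1, the GTPase that frees the export adaptor Nmd3, by 1.21. TIF6, the factor that keeps the subunits apart until release, was at 0.32 and BUD20 at 0.44, and neither passed with all libraries. NMD3 itself, at -0.99, and YVH1, at -0.87, did not pass without wild-type library 2, and ECM1, at -0.84, did not pass without either wild-type library or without deletion library 2. Over the 4 lists of assembly and regulatory genes, 16 genes were called lower. Fewer were called lower without wild-type library 2, as was the case among all features.

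The 13 regulators of ribosomal protein genes did not move one way: 2 fell, 4 rose and 7 did not pass. These shares lie near those of all features, of which 24.9% fell and 26.9% rose. STB3, a repressor that binds an element of ribosome synthesis genes, was at 31.4 and 41.0 CPM in the wild type against 100 and 123 in the deletion, a rise of 1.63 ± 0.21. DOT6, a repressor that binds the PAC element, was at 101 and 107 CPM against 284 and 292, a rise of 1.47 ± 0.16. SCH9, the kinase that TOR complex 1 activates and that acts on both repressors, was at 20.1 and 21.5 CPM against 39.8 and 62.5, a rise of 1.30 ± 0.25. SFP1, an activator of ribosomal protein genes, was at 25.2 and 26.0 CPM against 35.05 and 81.8, a rise of 1.20 ± 0.37 (edgeR adjusted p = 0.031) that did not pass with library totals or upper quartile factors. The deletion libraries were far apart for SFP1. IFH1, the coactivator bound to Fhl1, was at 39.9 and 38.2 CPM against 22.1 and 28.3, a fall of 0.63 ± 0.21, and TOD6, the paralog of DOT6, at 45.3 and 57.6 against 34.8 and 29.8, a fall of 0.67 ± 0.20. Neither fall passed when either wild-type library was left out. FHL1 was at -0.81 ± 0.32 (edgeR adjusted p = 0.0671) and passed without deletion library 2. RAP1 at 0.05, HMO1 at 0.01 and REB1 at 0.08 did not pass and had the opposite sign with library totals. TBF1 was at -0.01, ABF1 at -0.18 and CRF1 at -0.17, and none of these passed.

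**Figure D5:**
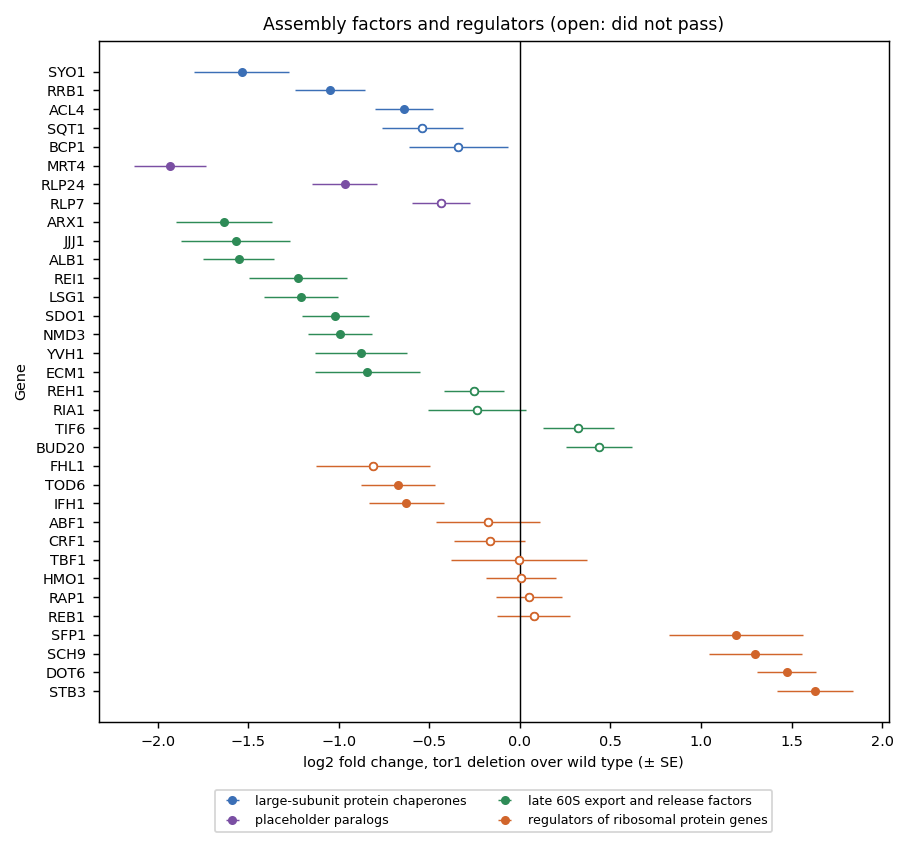
Log2 fold change (± SE, 2 libraries per strain) of chaperones, placeholder proteins, late maturation factors and regulators, with open symbols for genes that did not pass. Filled symbols of the first 3 groups all lie below 0, and the regulators run from FHL1 at -0.81 to STB3 at 1.63.

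In the 500 bases before the start codon, the Rap1 letters occurred on either strand in 18 of 81 members (22.2%), against 2.22% of 5987 genes with such a window. The windows shown above for RPL13B, RPL41B, RPL22B and RPL25 are among these 18. The 18 members with the letters had a median log2 fold change of -1.82 and the other 63 one of -1.75. All 18 fell, as did 61 of the 63. The letters AAATTTT, the RRPE element bound by Stb3, stood before 50.6% of members and 34.1% of all genes, and GATGAG, the PAC element, before 22.2% and 28.3%. GACGC, a motif of Fhl1, stood before 39.5% and 30.4%, TC, any 7 bases and ACG of Abf1 before 42.0% and 46.1%, TTACCCG of Reb1 before 6.17% and 10.1%, and AACCCTAA of Tbf1 before 1.23% and 1.45%. Both strands were searched for each motif, and a match describes letters in the window and is not evidence of binding. Likewise, a window without the letters is not evidence that the factor does not bind there, so the 63 members may include targets of Rap1.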

How the data were processed

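The authors deposited raw read counts per feature for each of 4 libraries and a table of log10 values. Per the submitters' processing notes, the tools were FastQC, Subread and featureCounts with the build sacCer3. Their versions and the strand setting are not stated. In that deposited table of 6519 features, counts had been divided by a constant for each library (1.61, 1.03, 0.669 and 0.903), raised by 1 and put on the log10 scale, and it served only as an alternative.

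Libraries were assigned to strains by title. All 7127 features were filtered by filterByExpr (930 removed) and TMM-scaled, and edgeR 4.0.16 (R 4.3.3) gave quasi-likelihood tests between strains, adjusted by Benjamini-Hochberg over 6197 features at 0.05. The coefficient of biological variation was 17.8%. CPM are TMM-normalised. Copy ratios used limma 3.58.1 on log2(A/B) with 0.5 counts added, over 61 pairs by name and other reciprocal best protein matches (BLAST 2.17.0), and copies were aligned with mafft 7.526. Copies were also summed per protein and refitted. Names, sequences and positions came from R64, with which 1039 file identifiers could not be matched. Alternatives included DESeq2 1.42.0. Library depth and floors cover counting error only.

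Members and gene lists were chosen with earlier results of these data known. Named genes were all single-copy and stalk genes, the 6 steepest and 6 shallowest members, members not passing, the 8 most and 4 least different pairs, pairs whose order turned, and every chaperone, placeholder and regulator. Late maturation factors named, RPL1 as a pair, and the partner copies of named genes were chosen after their values were seen. EFL1 is listed as RIA1 in the annotation. In data simulated for the tor1 deletion against wild type over 6135 genes, edgeR recovered 74% of 100 genes changed by 1 on the log2 scale and 100% of those changed by 2. Over 922 simulated pairs, limma recovered 27.0% and 100%.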

Additional observations from a re-analysis of the deposited data

How the results depend on the processing

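Between 75 and 81 members were called lower with DESeq2, the likelihood ratio test, limma-voom, other factors, other filters, the authors' table, a threshold of 0.01, the replicate block and each library left out, and none was called higher in any of these. Leaving out single libraries gave 75 to 81 members, 43 to 46 summed proteins, 9 to 19 other pathway genes called lower, and a member median of -2.03 to -1.55. The other pathway genes called lower were fewest without wild-type library 2, where fewer of all features were called lower too. The median was -2.16 with upper quartile factors and -2.10 with library totals, which shifted all features by -0.41 and -0.35, and the members lay 1.75 below that shift in both.

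The 9 pairs with a changed ratio became 4 with diffSpliceDGE and 1 with a threshold of 0.01 (RPL41), and among the 7 pairs under 90% identical 1 was called (RPL43), a smaller set that leaves out 8 of the 9. Leaving out single libraries gave 2 to 17. The deviations of libraries with the same number from their strain means had r = -0.07 over all genes and 0.16 over members. No label says whether the numbers pair the libraries, and with 2 libraries per strain this r cannot settle it. With a replicate block, 78 members and 4 pairs (RPL41, RPL15, RPL9 and RPL7) were called, and RPL1A was lost (adjusted p = 0.0539). RPL33A, at -2.03 with edgeR adjusted p = 0.0456, was lost with the authors' table (p = 0.0582), without wild-type library 1 and without deletion library 2.

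Signs turned in single genes and pairs that had not passed, and the cause was not tested. With upper quartile factors TIF6 was at -0.072, HMO1 at -0.39, REB1 at -0.32 and RAP1 at -0.34. With library totals HMO1 was at -0.33, REB1 at -0.25 and RAP1 at -0.28. HMO1 was at -0.022 with factors set without ribosomal protein genes, at -0.020 with a filter of 50 counts and at -0.0068 with the replicate block. TBF1 was at 0.0012 with DESeq2, 0.0066 with RLE factors and 0.0079 without a filter. With single libraries left out, RPL15B ran from -0.85 to 0.010, RIA1 from -0.69 to 0.11, HMO1 from -0.19 to 0.19, TBF1 from -0.63 to 0.41, REB1 from -0.077 to 0.22, RAP1 from -0.032 to 0.15 and ABF1 from -0.51 to 0.12. In the same settings the ratio RPL26 A over B ran from -0.00695 to 0.21, RPL31 A over B from -0.27 to 0.11 and RPL19 A over B from -0.19 to 0.11. Depth limits the members with few counts (RPL39, RPL43A, RPL33A and RPL36B), whose errors are wide, and all changes are relative to the other poly(A) RNA of a library.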
